A study of Mus musculus with 16 samples.

Results

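The genes described here are 10 markers of the brain vasculature, chosen by symbol: Cldn5, Flt1, Pecam1, Tek, Esam, Apold1, Nostrin and Abcb1a, which are used as endothelial genes, and Pdgfrb and Acta2, which are used as mural genes. All 10 were found in each of the 16 libraries, among 24060 rows per library. Aldh1l1-cre/ERT2 x RiboTag mice on a C57BL/6J background, aged 3 months, had received tamoxifen at 2 months, and RNA of their somatosensory cortex was sequenced. In these mice, cells in which the astrocytic Aldh1l1 promoter drives Cre carry an HA tag on the ribosomal protein Rpl22. An antibody against HA then pulled down their ribosomes with the bound mRNA (IP), while the cleared lysate held RNA of all cell types (INPUT). Stressed mice swam for 20 min in a bucket of water and rested for 90 min in the home cage, and naïve mice stayed in the home cage. There were 4 libraries each of naïve INPUT, stress INPUT, naïve IP and stress IP, numbered 1 to 16 across the series. Tamoxifen, the Cre allele and the tag were common to naïve and stressed mice. The paper's methods give 4 male and 4 female mice. The labels do not say which IP and INPUT library came from the same mouse, nor the sex of each mouse.

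Brain capillaries are tubes of endothelial cells sealed to each other by tight junctions, which form the blood-brain barrier. Pericytes and smooth muscle cells, together called mural cells, wrap these tubes from outside, and astrocyte endfeet cover both. Endothelial and mural cells are not astrocytes, and the pull-down is meant to leave their mRNA behind. The values below give the level of each gene in IP, how IP compared with INPUT, and whether stress shifted the genes in whole cortex.

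Members of the ETS family of transcription factors, such as Erg and Fli1, are known regulators of endothelial genes. The core of their binding site mostly reads GGAA, and the motif searched for here was the longer GGAAG, or CTTCC on the other strand. RefSeq promoters (GRCm38.p6) were matched for 7 of the 10 genes. Of the 7, 4 held the motif within the 120 bases before the start of the gene in RefSeq. For Abcb1a, Apold1 and Acta2 this start differs from the GENCODE start printed further on. Over all 32851 promoters of the same length the share was 41.0%. Shown are the promoters of Cldn5, the gene with the lowest IP level relative to INPUT, and of Flt1, the highest among the endothelial genes. Those of Tek and Nostrin are added. All are written 5′ to 3′ on the strand of the gene, with the motif in capitals.
Cldn5, chr16:18776727-18776846, plus strand: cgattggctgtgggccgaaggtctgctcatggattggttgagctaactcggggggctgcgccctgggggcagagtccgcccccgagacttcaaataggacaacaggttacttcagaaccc
Flt1, chr5:147726012-147726131, minus strand: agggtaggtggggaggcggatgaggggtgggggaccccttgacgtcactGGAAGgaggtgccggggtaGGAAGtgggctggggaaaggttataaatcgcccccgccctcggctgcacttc
Tek, chr4:94739169-94739288, plus strand: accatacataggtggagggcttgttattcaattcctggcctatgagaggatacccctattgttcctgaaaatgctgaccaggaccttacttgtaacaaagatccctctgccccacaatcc
Nostrin, chr2:69135680-69135799, plus strand: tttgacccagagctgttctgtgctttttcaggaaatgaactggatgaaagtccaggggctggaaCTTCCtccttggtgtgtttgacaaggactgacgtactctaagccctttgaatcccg
Flt1 held the motif 2 times, Nostrin held it 1 time, and it was not in the Cldn5 and Tek windows. Abcb1a and Acta2 held it as well, whereas Apold1 did not. A window without the motif can still hold GGAA or TTCC, which were not counted. A match is a description of the letters and not a binding site.

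Depth was similar across the series, with 16392876 to 25814364 reads counted on genes per library, so that 3 reads corresponded to 0.116 to 0.183 CPM, the reads on a gene per 1000000 reads on all genes of the library. All 13 astrocyte markers examined were higher in naïve IP than in naïve INPUT, with a median log2 ratio of 3.61. All 10 neuronal and 8 microglial markers were lower, where 23.7% of all genes tested were higher and 64.0% lower. Among the IP libraries, naïve IP replicate 11 had the highest sums of mural and fibroblast markers. Its 24 mural markers summed to 193 CPM where the remaining naïve IP replicates had 108 to 136 CPM. Its 8 fibroblast markers summed to 200.2 CPM against 103 to 138 CPM. The endothelial list did not set it apart, at 720 CPM beside 717 CPM in naïve IP replicate 2. Naïve IP replicate 2 held 129 CPM of 5 choroid plexus markers, where replicates 8, 11 and 13 had 4.69 to 12.2 CPM. For Flt1, Pdgfrb and the endothelial, mural and fibroblast lists, naïve IP against INPUT and stress in IP are also given without replicate 11.

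In whole cortex, per kilobase of exon, Cldn5 had the highest level of the 10 genes in naïve INPUT, at 9.99 ± 2.72 CPM per kb (SD, n = 4). Cldn5 encodes claudin-5, the main sealing protein of the endothelial tight junction. Pdgfrb followed at 4.64 ± 0.27 CPM per kb and Abcb1a at 2.94 ± 0.38 CPM per kb, and the ranges of these 3 genes did not overlap. Esam (2.35 CPM per kb), Pecam1 (2.03), Flt1 (2.02) and Tek (1.81) came next, and each overlapped with its neighbours in this order. Nostrin (1.16), Apold1 (1.08) and Acta2 (0.81) were lowest on this scale and likewise overlapped with their neighbours. In naïve IP the order was different, with Pdgfrb at 24.1 ± 2.16 CPM per kb and the next gene, Cldn5, at 0.62 ± 0.25 CPM per kb.

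**Figure D1:**
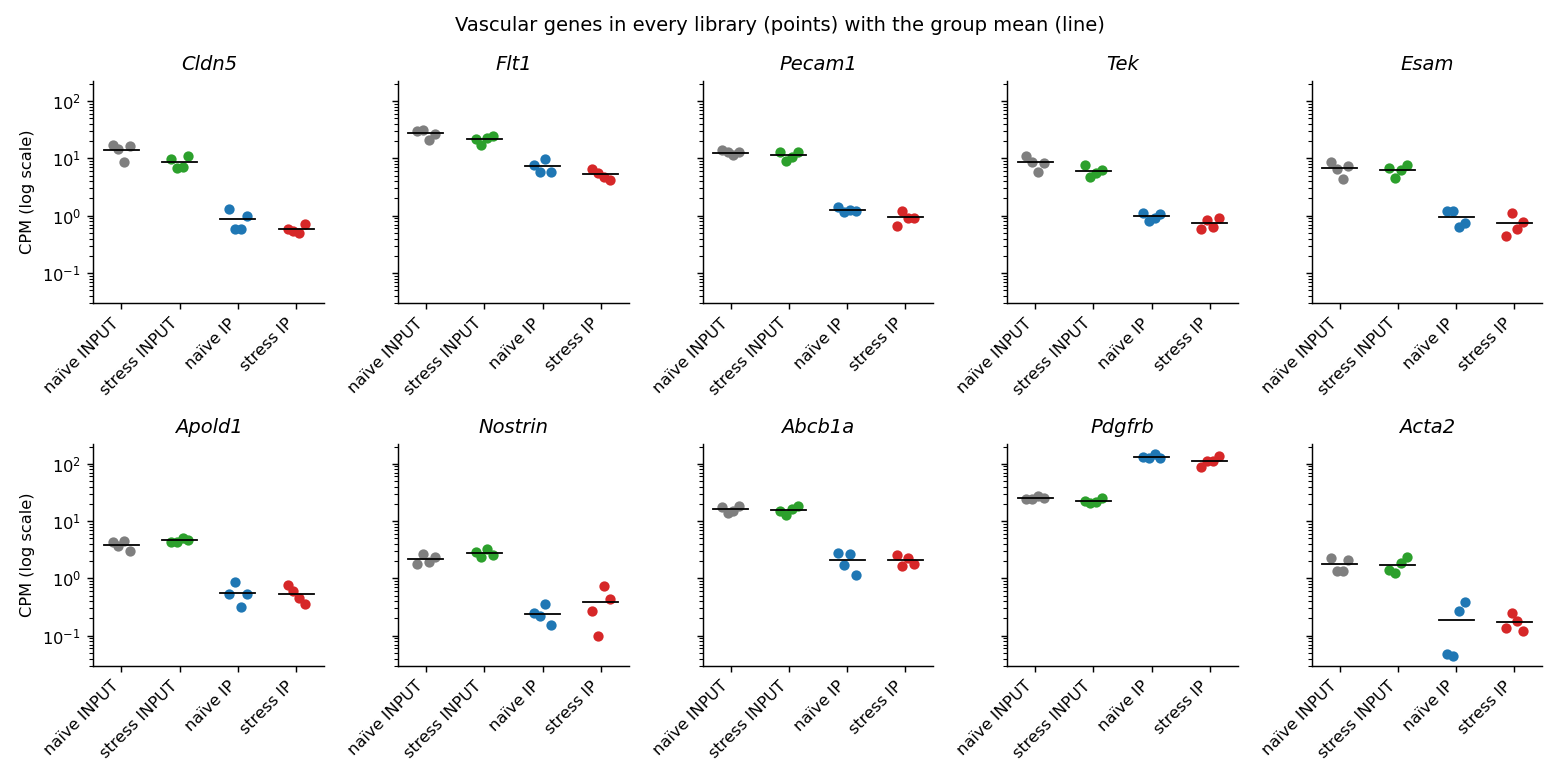
CPM of the 10 vascular genes on a log axis, 1 panel per gene, with the 4 libraries of each group as points and the group mean as a line. In 9 panels all IP points lie under all INPUT points, and in the Pdgfrb panel the IP points (89.0 to 149 CPM) lie above the INPUT points (20.6 to 27.4 CPM).

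The level of vascular mRNA in the astrocyte pull-down was examined first in naïve mice. The 8 endothelial genes and Acta2 were far lower in IP than in INPUT, while Pdgfrb was 5.20-fold higher. Expressed as IP mean CPM over INPUT mean CPM, the 9 lower genes kept between 6.18% (Cldn5) and 26.7% (Flt1) of their INPUT level, with a median of 11.5%. Here and below, such a percentage compares shares of reads. It depends on what else each library held and on the scaling, and is not the fraction of mRNA left. In stressed mice the same 9 genes kept between 6.78% and 24.6%, with a median of 11.7%, and Pdgfrb was 5.00-fold higher. With limma on log2(CPM + 0.1) and no filter on low values, all 10 genes passed an adjusted p of 0.05 in naïve mice, 9 lower and 1 higher. Of all genes in that fit 54.8% were called lower and 18.0% higher, so being lower in IP was the common outcome for a gene in these libraries. Under the filter used for the comparisons, a mean above 1 CPM over the 8 libraries, 9 of the 10 genes were tested, with 8 called lower and 1 higher, and the background was 64.0% lower and 23.7% higher. Acta2 was under this filter, and 4 of the 10 genes had a mean above 1 CPM in both fractions, so that the other 5 tested passed it through INPUT. The sizes can be read against the median of all genes tested, which lay at −0.64 on the log2 scale, with the 5th percentile at −3.51 and the 95th at 2.24.

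**Figure D2:**
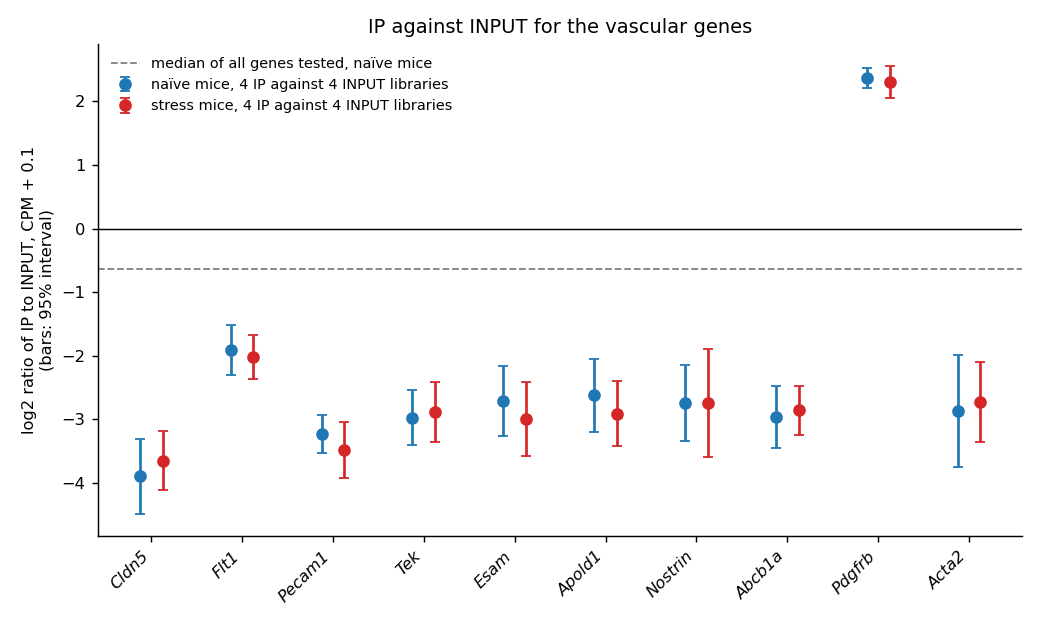
Log2 ratio of IP to INPUT on the CPM + 0.1 scale for each vascular gene in naïve (blue) and stressed (red) mice, with 95% intervals from limma, 4 IP against 4 INPUT libraries each. Values of 9 genes lie between −3.89 and −1.91, below the dashed median of all genes (−0.64), and Pdgfrb lies at 2.37 and 2.31. The Acta2 points come from the fit without a filter.

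Among the junction and adhesion proteins, Cldn5 (chr16:18776847-18778262, GRCm38, a gene of 1 exon) was read at 17.1, 14.8, 8.53 and 16.2 CPM in naïve INPUT and at 1.32, 0.58, 0.59 and 1.01 CPM in naïve IP. All 4 IP libraries lay far below the lowest INPUT library. Its log2 ratio of IP to INPUT was −3.89 (SE 0.27, limma adjusted p = 9.67e-09), the lowest of the 10 genes. Pecam1 (chr11:106654217-106750628), the endothelial adhesion molecule CD31, was read at 13.8, 12.8, 11.3 and 12.7 CPM in naïve INPUT and at 1.42, 1.16, 1.25 and 1.20 CPM in naïve IP. The naïve IP libraries lay close together, and its log2 ratio was −3.23 (SE 0.14). Esam (chr9:37528078-37538319), another adhesion molecule of endothelial contacts, fell from 6.73 ± 1.78 to 0.95 ± 0.31 CPM (SD, n = 4), a log2 ratio of −2.71. For these 3 genes the INPUT and IP libraries did not overlap in naïve or in stressed mice.

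The endothelial receptors kept unequal shares. Flt1 (chr5:147561604-147726011) encodes a receptor for vascular endothelial growth factor (VEGF), which it binds tightly while signalling weakly. It was read at 30.6, 31.9, 20.5 and 26.3 CPM in naïve INPUT and at 7.78, 5.73, 9.91 and 5.73 CPM in naïve IP, so each naïve IP library held at least 128 reads of it. The log2 ratio was −1.91 (SE 0.18), and without naïve IP replicate 11, the library with most Flt1, it was −2.07. Tek (chr4:94739289-94874976), the angiopoietin receptor Tie2, was read at 11.1, 8.65, 5.88 and 8.39 CPM in naïve INPUT and at 1.13, 0.81, 0.90 and 1.08 CPM in naïve IP. Its log2 ratio was −2.97 (SE 0.20), and it kept 11.5% of its INPUT level against 26.7% for Flt1.

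Quotients of 2 genes within a library are free of the scaling between libraries. For pairs chosen after the values had been seen, the CPM of Flt1 was divided by that of Pecam1 in the same library. The quotient ran from 1.69 to 2.50 (median 1.99) in the 8 INPUT libraries and from 4.52 to 9.93 (median 5.04) in the 8 IP libraries. For Pdgfrb over Pecam1 the quotient ran from 1.76 to 2.43 in INPUT and from 92.3 to 145 in IP. Cldn5 over Pecam1 overlapped, at 0.65 to 1.27 in INPUT and 0.44 to 0.93 in IP.

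Of the remaining endothelial genes, Abcb1a (chr5:8660077-8748575), which encodes the drug efflux pump P-glycoprotein of the blood-brain barrier, was read at 17.6, 13.7, 15.2 and 18.2 CPM in naïve INPUT. In naïve IP it was read at 2.74, 1.75, 2.66 and 1.16 CPM, a log2 ratio of −2.96 (SE 0.23). Its count is uncertain, because 13.4% of the 69-base windows of its transcripts also occur in Abcb1b or Abcb4, and 10.1% of its exon bases lie opposite an antisense gene. Apold1 (chr6:134981718-134986836), an endothelial early-response gene, was lower at 3.84 ± 0.66 CPM in INPUT and 0.56 ± 0.22 CPM in IP (SD, n = 4). Nostrin (chr2:69135800-69189330), which encodes a protein that binds endothelial nitric oxide synthase, stood at 2.19 ± 0.38 and 0.24 ± 0.08 CPM. Only 4 to 9 reads per naïve IP library lay behind the Nostrin level, and its log2 ratio was −2.75 (SE 0.28).

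The mural genes moved in opposite directions. Pdgfrb encodes the receptor through which endothelial PDGF-B recruits pericytes, and it is widely used to mark them. It was read at 24.4, 24.3, 27.4 and 25.6 CPM in naïve INPUT and at 132, 124, 149 and 124 CPM in naïve IP. Every naïve IP library lay far above every naïve INPUT library. This is the opposite direction to Acta2 and to the 13 of 19 mural markers called lower, where 64.0% of all genes tested were called lower. Pdgfrb is described here by its name and not as a measure of mural cells. The log2 ratio was 2.37 (SE 0.07, limma adjusted p = 1.29e-12) in naïve and 2.31 (SE 0.11) in stressed mice, and 2.31 in naïve mice without replicate 11. It lay below the lowest of the 13 astrocyte markers, Gjb6, at 2.87. Acta2 (chr19:34241090-34255590), the smooth muscle actin, was read at 2.32, 1.35, 1.35 and 2.09 CPM in naïve INPUT and at 0.05, 0.04, 0.27 and 0.39 CPM in naïve IP. Its naïve IP libraries held 1, 1, 7 and 10 reads, so 2 of the 4 were under the 3 reads taken as the limit of detection. The IP and INPUT libraries of Acta2 did not overlap, which in an exact permutation test over 70 labelings gives p = 0.029 (two-sided), the smallest value possible, and the fit without a filter gave a log2 ratio of −2.87 (SE 0.41).

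In all, INPUT and IP separated for 10 of 10 genes in naïve and in stressed mice, 9 lower and 1 higher. Among all genes tested, groups that did not overlap made up 61.4% (lower) and 22.4% (higher) in naïve mice, and 59.0% and 22.4% in stressed mice. In stressed mice the filter again left 9 genes, of which 8 were called lower and 1 higher, against 62.5% and 23.6% of all genes, and 6 of the 9 passed the filter through INPUT. Scaling by the median ratio, which moved the median of all genes from −0.64 to 0.03, left the 8 endothelial genes lower and Pdgfrb higher, at −1.25 for Flt1 and 3.04 for Pdgfrb in naïve mice. It also changed the split over all genes from 3158 higher and 8540 lower to 5715 higher and 5509 lower.

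The 10 genes were then set beside other vascular markers. Of 36 endothelial markers tested in naïve mice, 29 were lower in IP and 7 higher, with a median log2 ratio of −2.62, beside 64.0% lower and 23.7% higher of all genes. Of the 29 lower genes 14 averaged at most 1 CPM in IP and so passed the filter through INPUT. The lowest was Ly6c1, at −4.43, a surface protein of brain endothelium (13.0 CPM in INPUT, 0.52 CPM in IP). The highest was Slco1c1, a thyroxine transporter of the blood-brain barrier, at 3.00 (34.6 CPM in INPUT, 276 CPM in IP). The other genes higher in IP were Sox7, Ramp2, Slc2a1, Mfsd2a, Slc16a1 and Slc7a5, named here after their values were seen. Without naïve IP replicate 11, 6 were higher and 29 lower. Among the receptors related to Flt1 and Tek, Kdr, the main signalling VEGF receptor, kept 43.1% of its INPUT level and Tie1 kept 16.3%, and these too were named after their values were seen. Erg kept 12.4% and Fli1 7.74%.

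**Figure D3:**
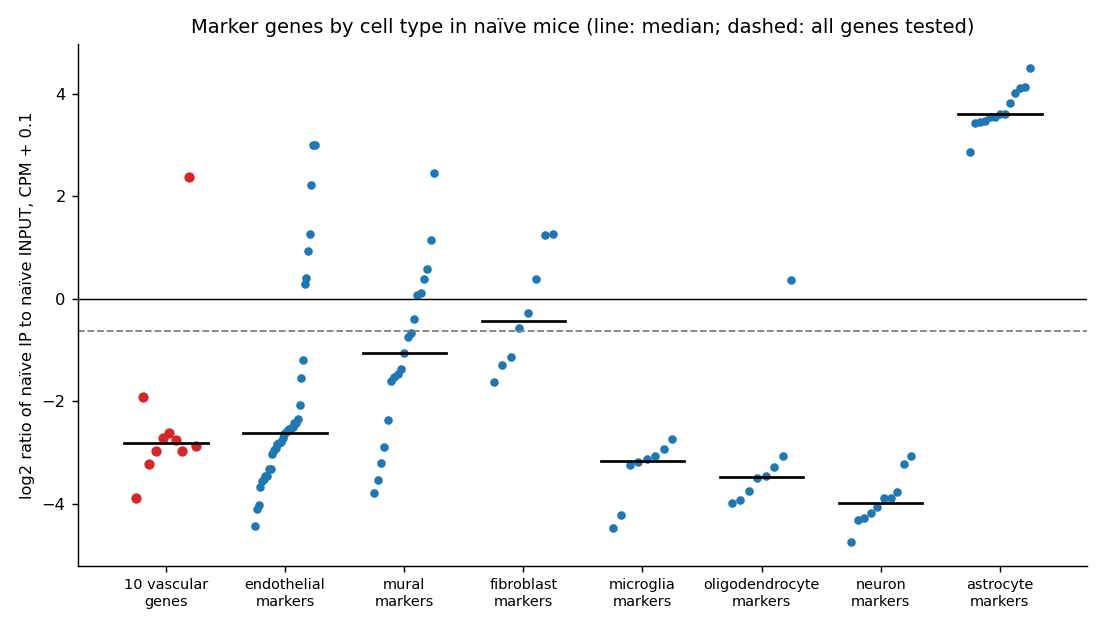
Log2 ratio of naïve IP to naïve INPUT (CPM + 0.1) of single genes by marker list, with the list median as a line, 0 as a solid line and the median of all genes tested (−0.64) dashed. The 10 vascular genes are in red, Acta2 from the fit without a filter. Endothelial and mural markers spread from below −3 to above 2, whereas all astrocyte markers lie above 2.8 and all neuronal markers below −3.

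Mural markers were more mixed than the endothelial ones. Of 19 tested in naïve mice, 13 were lower in IP, 2 were higher and 4 did not pass the threshold, with a median of −1.06. Without replicate 11 the median was −1.23, with 14 lower and 2 higher. Of all genes tested in naïve mice, 64.0% were lower and 23.7% higher, so the mural count lay near the common outcome. Ndufa4l2, a mitochondrial gene of pericytes, was lowest at −3.79, and the pericyte channel genes Kcnj8 and Abcc9 stood at −3.53 and −3.21, the latter pair named after their values were seen. The highest was Notch3, the mural Notch receptor, at 2.46 (5.59 ± 0.60 CPM in INPUT, 31.3 ± 5.51 CPM in IP), a value close to that of Pdgfrb. Cox4i2, a subunit of cytochrome c oxidase, was the other gene called higher, at 1.14. The 24 mural markers summed to 108 to 193 CPM in naïve IP against 214 to 245 CPM in naïve INPUT. Notch3 (31.3 CPM), Vtn (27.4), Slc6a20a (15.7) and Zic1 (13.2) made up most of the IP sum on average. Cspg4 (7.82 CPM), Rgs5 (7.75), Atp13a5 (6.45) and Myl9 (6.45) came next. Kcnj8 (0.25 CPM), Ndufa4l2 (0.11), Myh11 (0.58) and Higd1b (0.06) were near 0 in naïve IP. Of these, Myh11 and Higd1b were low in naïve INPUT too, at 1.45 and 0.62 CPM. All these genes were listed after their values were seen. What part mural cells had in the Pdgfrb level of IP was not tested. Quantile normalization gave the mural list 7 higher and 8 lower and a median of 0.11, whereas the endothelial list kept 7 higher and 28 lower. Of 8 fibroblast markers 4 were lower and 2 higher, from Lum at −1.62 to Col1a2 at 1.25, and the median of −0.43 turned to 0.23 with median ratio scaling. Without naïve IP replicate 11, 5 fibroblast markers were lower and 2 higher, with a median of −0.67.

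Ligands and partners of the 10 genes gave 11 higher, 8 lower and 4 not called among 23 tested, against 23.7% higher and 64.0% lower of all genes. With median ratio scaling 15 were higher and 7 lower. The ligand of Pdgfrb, Pdgfb, which endothelial cells secrete, went the other way from its receptor and fell from 24.0 ± 1.38 to 1.71 ± 0.27 CPM. Vegfa, a ligand of Flt1, was 3.12-fold higher in IP, and Angpt1, the activating ligand of Tek, was 1.97-fold higher. These 3 ligands were named after their values were seen. The lowest was Acta1, a skeletal muscle actin, at −3.86. Abcb1b, the near copy of Abcb1a, had 3.24 CPM in INPUT and 3.27 CPM in IP on this scale.

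Whether a single swim changed the vascular genes in whole cortex was examined by comparing the 4 stress INPUT with the 4 naïve INPUT libraries. No gene of the 10 passed the adjusted threshold, 8 had a value below 0 and 2 above, and for each gene the libraries of both groups overlapped, whereas 1.43% of all genes were higher and 1.44% lower without overlap. Of all 13577 genes tested 0.0442% were called, 6 in number, by limma. At an unadjusted p under 0.05, 4 of the 10 genes passed (Cldn5, Tek, Flt1 and Pdgfrb), against 5.03% of all genes. Here and below, such counts are a description, because genes read in the same libraries are not independent. The lowest p of the 10 genes in the exact permutation test was 0.086 (two-sided). Limma-voom on the recovered reads also called 0 of 10. In such bulk RNA, fewer cells of a type and less RNA per cell cannot be told apart.

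Cldn5 had the largest difference. It was read at 17.1, 14.8, 8.53 and 16.2 CPM in naïve INPUT and at 9.82, 6.83, 6.94 and 11.0 CPM in stress INPUT. Naïve replicate 14, at 8.53 CPM, lay among the stress libraries, and the other naïve libraries lay above all of them. The log2 fold change was −0.68 (95% interval −1.14 to −0.23, limma p = 0.0063, adjusted p = 0.60), and the exact permutation test gave p = 0.086 (two-sided). Leaving out naïve replicate 14 gave −0.91 and an adjusted p of 0.044 (limma), which passes the threshold, while over all 8 omissions the value ran from −0.91 to −0.58. Without that library 32 genes were called in place of 6.

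Tek and Flt1 followed in size. Tek had a mean of 8.51 ± 2.14 CPM without stress and of 6.12 ± 1.22 CPM after it (SD, n = 4), a log2 fold change of −0.46 (95% interval −0.86 to −0.05, limma adjusted p = 0.95). Flt1 stood at 27.3 ± 5.11 and 21.5 ± 3.21 CPM, a log2 fold change of −0.34 (95% interval −0.64 to −0.04, limma adjusted p = 0.95). Pdgfrb, at 25.4 ± 1.45 and 22.4 ± 2.02 CPM, had −0.19 (95% interval −0.37 to −0.01, limma adjusted p = 0.97). Pecam1 (−0.16), Esam (−0.07), Abcb1a (−0.05) and Acta2 (−0.05) lay closer to 0, with intervals that included it. Apold1 and Nostrin lay above 0, at 0.27 (95% interval −0.07 to 0.61) and 0.33 (95% interval −0.07 to 0.73). Apold1 responds early to many stimuli in cultured endothelium, and here its stress libraries (4.39, 4.27, 5.16 and 4.63 CPM) overlapped with the naïve ones (4.24, 3.65, 4.49 and 3.00 CPM).

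**Figure D4:**
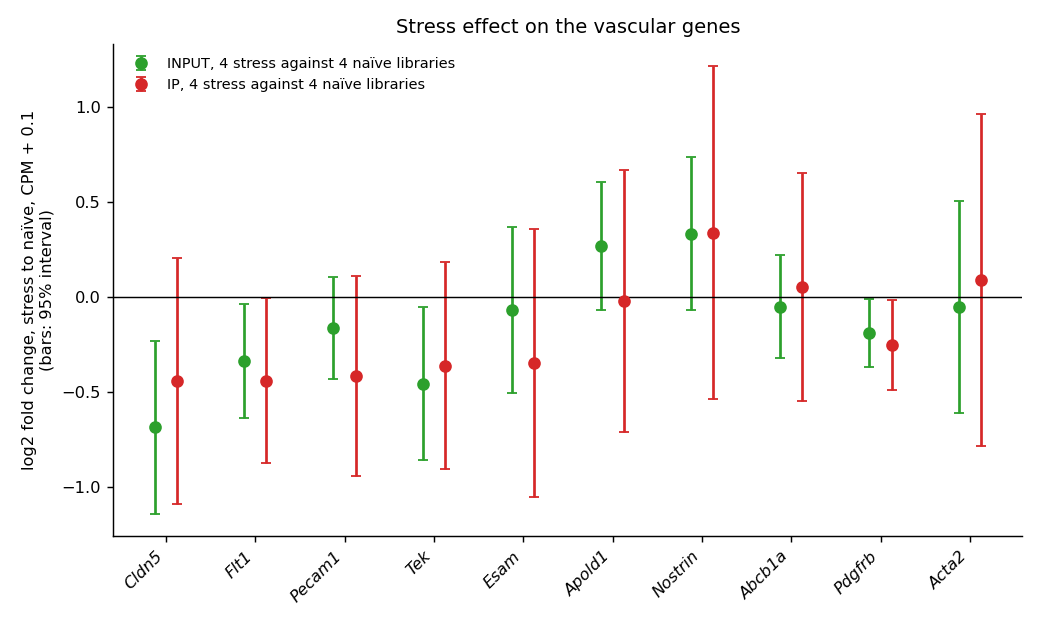
Log2 fold change of stress to naïve (CPM + 0.1) for each vascular gene in INPUT (green) and IP (red), with 95% intervals from limma on 4 against 4 libraries. In INPUT, Cldn5 has the lowest value (−0.68) and Nostrin the highest (0.33), and the IP intervals are wider for most genes. IP points of Cldn5, Tek, Esam, Apold1, Nostrin and Acta2 come from the fit without a filter.

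The INPUT libraries differed from each other within a group in the levels of the 10 genes. Stress replicate 9 was below the 8-library median for all 10 genes, and stress replicate 12 was above it for 9. Among naïve libraries, replicates 3 and 16 were above the median for 8 genes each, replicate 7 for 5 and replicate 14 for 2. The 8 endothelial genes summed to 105 CPM in naïve replicate 3, 94.7 in replicate 7, 72.2 in replicate 14 and 94.5 in replicate 16. In stress INPUT they summed to 80.5, 61.5, 77.3 and 88.7 CPM, a range that overlapped with the naïve one. Without stress replicate 9, the Cldn5 difference was −0.58 (limma adjusted p = 0.61). The genes whose INPUT profile was most like the mean profile of the 8 endothelial genes were Atr, Shprh, Gcfc2, Cntrl and Zkscan8, with Pearson r from 0.98 to 0.99 over the 8 libraries among 11266 candidates, given as a description. None of these 5 is an endothelial marker. The 38 endothelial markers summed to 623, 549, 595 and 593 CPM in naïve INPUT replicates 3, 7, 14 and 16, so replicate 14 was not lowest there. In stress INPUT replicates 1, 9, 10 and 12 they summed to 603, 502, 578 and 618 CPM, with replicate 9 lowest again. Cd34 (158 CPM), Slc2a1 (46.9), Slc7a5 (42.0) and Slco1c1 (34.6) had the largest part in the sum by mean naïve INPUT level. All of these except Cd34 were higher in naïve IP than in naïve INPUT, so the sum does not follow endothelial RNA alone. Whether the libraries differed in vascular content was not tested.

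**Figure D5:**
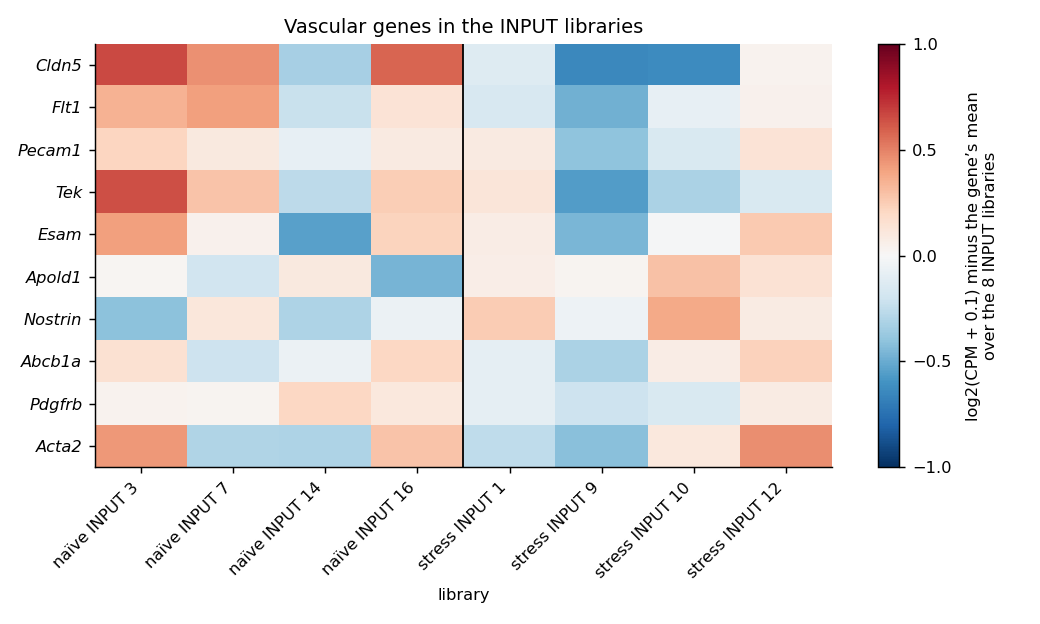
Deviation of each vascular gene from its own mean over the 8 INPUT libraries, in log2(CPM + 0.1), with red above and blue below the mean and a line between naïve and stress libraries. Stress replicates 9 and 10 and naïve replicate 14 are low for Cldn5 and Tek, and naïve replicate 3 is high for both.

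Other vascular markers in INPUT had no call either. None of 35 endothelial markers passed the adjusted threshold, and their median was −0.13. At an unadjusted p under 0.05 (limma) 8 of the 35 passed, against 5.03% of all genes. Of these, Mfsd2a (0.50) and Slc2a1 (0.39), both higher in naïve IP than in naïve INPUT, lay above 0. Kdr, Fli1, Robo4, Gpr116, Clec14a and Podxl lay below 0. The lowest value of an endothelial marker was that of Kdr, −0.65, and the highest that of Pglyrp1, an innate immune protein, 0.53. For 22 mural markers the median was 0.01, from Foxf2 at −0.45 to Lmod1 at 0.99, with 0 called and 1 at an unadjusted p under 0.05. Among 25 partner genes 0 were called and 2 had an unadjusted p under 0.05, from Flt4 at −0.38 to Pgf at 0.49. The 8 fibroblast markers had 0 calls, 2 at an unadjusted p under 0.05 and a median of 0.29, from Col1a1 at −0.08 to Col3a1 at 0.46.

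In IP, 4 of the 10 genes passed the filter and 0 were called by limma, against 0.440% of all genes, 55 of 12501. At an unadjusted p under 0.05, 2 of these 4 passed (Pdgfrb and Flt1), against 8.27% of all genes. For 0 of the 10 genes did the naïve and stress IP libraries separate, which 2.38% (higher) and 2.62% (lower) of all genes did. Pdgfrb was read at 132, 124, 149 and 124 CPM in naïve IP and at 89.0, 114, 110 and 134 CPM in stress IP. The lowest stress value came from replicate 4, and the highest lay within the naïve range. Its log2 fold change was −0.25 (95% interval −0.49 to −0.01, limma adjusted p = 0.57), and it ran from −0.35 (without stress replicate 15) to −0.15 (without stress replicate 4), with −0.19 without naïve replicate 11. Flt1 had −0.44 (95% interval −0.87 to −0.01, limma adjusted p = 0.60), and −0.28 without naïve replicate 11, more than 1.5 times closer to 0. Pecam1 had −0.42 and Abcb1a 0.05, with intervals that included 0. The other 6 genes, at under 1 CPM, ranged from −0.44 (Cldn5) to 0.34 (Nostrin) in the fit without a filter, which called 0 of 10 of them against 0.246% of all genes.

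The difference between the stress effects of IP and INPUT was tested on all 16 libraries. Of 9 genes tested 0 were called by limma and 0 had an unadjusted p under 0.05, against 0.0225% and 4.71% of all genes. Values ran from −0.29 (Apold1) to 0.24 (Cldn5), and the interval of the Cldn5 difference was −0.53 to 1.01. With 1 library left out, the Apold1 value ran from −0.50 to −0.09 and the Cldn5 value from 0.09 to 0.47. Esam had −0.28, Pecam1 −0.25, Flt1 −0.10, Pdgfrb −0.07, Tek 0.09, Abcb1a 0.10 and Nostrin 0.0048. The residual share in IP was therefore given for naïve and stressed mice side by side, at 6.18% and 6.78% for Cldn5, 9.96% and 8.21% for Pecam1, 11.5% and 12.2% for Tek and 12.9% and 13.3% for Abcb1a. Among the marker lists, 0 of 19 endothelial, 15 mural and 7 fibroblast markers were called in the stress comparison of IP, against 0.440% of all genes. At an unadjusted p under 0.05 (limma) 5, 1 and 0 passed, against 8.27% of all genes. Extremes were Sox7 (−0.80) and Mfsd2a (0.38) for endothelial and Anpep (−0.47) and Rgs5 (0.17) for mural markers. Fibroblast markers ran from Igf2 (−0.50) to Col3a1 (0.20). The medians were −0.08 for endothelial, −0.25 for mural and −0.10 for fibroblast markers. Without naïve IP replicate 11 they were −0.02, −0.07 and 0.08, again with 0 called. Of 21 partner genes 0 were called and 3 had an unadjusted p under 0.05 (limma), from Pdgfa (−0.33) to Pgf (0.66).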

How the data were processed

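Reads were mapped to mm10 by the authors, who used STAR, assigned unique fragments to RefSeq genes by HTSeq, and deposited log2 CPM per library, without scaling between libraries or correction for gene length. The submitters' processing notes also name edgeR and limma. Taking the log2 CPM back to CPM gave whole reads for 100% of values (within 0.05 reads), and 0 pairs of libraries were identical. From these, log2(CPM + 0.1) was compared between 4 and 4 libraries by limma 3.58.1 in R 4.3.3, with a variance trend. Genes averaging above 1 CPM over the 8 libraries entered, and calls were made at a p of 0.05 after Benjamini-Hochberg adjustment. Single genes had a two-sided exact permutation test. A fold change on this scale understates that of low genes. The fit was tested on simulated reads. The 10 genes, the 10 marker lists and the tests were chosen with earlier results of these data known. The rule for names took all 10 genes, the lowest and highest gene of each list and listed genes called under stress. Names are given for the lists and comparisons described, and 1 listed gene is not reported here. Levels per kb used GENCODE exons on GRCm38. Alternatives were other pseudocounts (1 and 0.01 CPM), filters (none and 5 CPM), scalings and tests, and each library left out. Intervals have a level of 95%, and reads after PCR are not independent molecules, so a limit of 3 reads reflects counting error alone. The methods give 4 mice per group, and p-values measure the spread between these libraries. Tables were made with Python 3.11.15, NumPy 2.4.6 and pandas 2.3.3.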

Additional observations from a re-analysis of the deposited data

How the results depend on the processing

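No paired analysis was possible because the groups share no replicate numbers and the labels do not tie IP to INPUT libraries of the same mouse. For the 41 results of vascular genes that passed the filter, direction and side of the threshold were kept in 711 of 741 recomputed values. Acta2 in IP against INPUT and in the difference, and 6 genes under stress in IP, were under the filter and not among them. Of the 741 values 29 changed sign and 1 crossed the threshold (Cldn5 in INPUT without naïve replicate 14). In IP against INPUT, with a mean above 5 CPM, 5 of the vascular genes were called in naïve and 4 in stressed mice, because fewer were tested. Under stress in INPUT, genes called over the whole table went from 6 to 0 without the variance trend and ran from 1 to 32 with 1 library left out, and vascular genes called ran from 0 to 1. The higher counts came without naïve replicate 14 (32) and stress replicate 9 (18), and the others were 1 or 2. Under stress in IP they went from 55 to 19 without the variance trend and 129 with all 16 libraries, and ran from 17 to 122 with 1 library left out, with the highest counts without naïve replicate 11 (122) and stress replicate 15 (101). For the difference between the stress effects they ran from 2 to 28, the latter without naïve IP replicate 11. In these, the cause was not tested. The Nostrin difference turned to −0.11 with a pseudocount of 1. Values that changed sign with 1 library left out ran, in INPUT, from −0.26 to 0.074 (Esam), −0.14 to 0.048 (Abcb1a) and −0.22 to 0.082 (Acta2). In IP, Abcb1a ran from −0.18 to 0.21. For the difference they ran from −0.22 to 0.055 (Flt1), −0.045 to 0.26 (Tek), −0.32 to 0.37 (Nostrin), −0.13 to 0.26 (Abcb1a) and −0.16 to 0.040 (Pdgfrb). Depth limits the IP level of Acta2 and Nostrin, with as few as 1 and 2 reads in a library.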

Other observations

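Of the marker lists not described above, oligodendrocyte markers had 7 of 8 lower and 1 higher in naïve IP than in naïve INPUT. Of all genes 64.0% were lower and 23.7% higher. The oligodendrocyte markers ran from Ermn at −3.99 to Cnp at 0.37, with a median of −3.48. The microglial markers ran from C1qa (−4.47) to P2ry12 (−2.74), with a median of −3.15, and the neuronal markers from Snap25 (−4.74) to Camk2a (−3.07), with a median of −3.97. The median of the 10 vascular genes, Pdgfrb among them, was −2.81, and that of the 8 endothelial genes −2.86. Both were nearer to 0 than the medians of these other lists, a difference that was not tested. With limma-voom the 8 endothelial genes had a median of −3.05. The microglial, oligodendrocyte and neuronal markers had −3.24, −3.53 and −3.98, the same order as in the main fit. The 0.1 CPM added before the log draws the ratios of low genes toward 0, and its part in the difference was not tested. Of 5 blood markers, Alas2 alone passed the filter, and it was higher in IP, at 2.59. Of 3 choroid plexus markers tested, Kcnj13 was called higher in IP, at 1.01. Ttr had the highest value, 2.38, and was not called (limma adjusted p = 0.086), with 114 CPM in the highest naïve IP library and a median of 3.36 CPM, and Kl was the lowest at −0.35, a value that turned positive under median ratio scaling and quantile normalization. In the stress comparison of IP, the 1 listed gene past the threshold was the astrocyte marker Sox9, at −0.65 (limma).

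A check for a library far from the others of its group (Dixon's test at the 95% level) over the 40 groups of 4 values of the vascular genes found 0, where chance gives about 2.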
